A study of Drosophila melanogaster with 6 samples.

Results

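The genes described here code for the machinery of the chemical synapse: 37 genes for active zone scaffolds, SNARE proteins, calcium sensors, synaptic vesicle and endocytosis proteins and synaptic adhesion molecules, out of 17868 genes in the count files. They were chosen by symbol from what the proteins are known to do, and all 37 symbols were found. Earlier results of these data were known when these genes and the other lists used below were chosen. RNA was read from clock neurons, the brain cells that keep daily time, sorted from adult brains of Drosophila melanogaster. The Prp3-RNAi group (3 libraries) had the genotype ClkGAL4, UAS-GFP-NLS/UAS-Prp3-RNAi, in which the driver Clk-GAL4 expressed a nuclear green fluorescent protein (GFP) together with a hairpin RNA against Prp3, a spliceosome gene. The control group (3 libraries), called wildtype in its labels, had the genotype ClkGAL4, UAS-GFP-NLS/+, so it carried the driver and the GFP marker too, but no hairpin of any kind. Hairpin and driver act wherever Clk-GAL4 is active, and the sort kept cells with GFP and without DAPI, a dye that enters dead cells, about 2000 per sample. All flies had 5 days of 12 h light and 12 h dark and were collected at zeitgeber time (ZT) 14, where ZT 12 is lights-off. The title of each control library names the Prp3-RNAi library it is paired with, without saying what a pair shares, and nothing in the labels says that the libraries of a group came from separate batches of flies, so p-values measure only the spread between these libraries, which may be technical. Age and sex of the flies are not given in the sources used here.

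At a chemical synapse, vesicles filled with transmitter dock at the active zone, a protein scaffold that holds them close to calcium channels. Entry of calcium is sensed by synaptotagmins, and SNARE proteins then pull vesicle and cell membrane together. The vesicle membrane is taken back by endocytosis and reused, and adhesion proteins hold the sending and the receiving side in register. Clock neurons signal to one another and to other brain cells through such synapses and through neuropeptides.

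The libraries held 24477244 to 32551739 gene counts. Values are given as CPM, counts relative to the library's total gene count, with TMM scaling in edgeR. The targeted gene Prp3 was read at 22.0 ± 9.75 CPM in Prp3-RNAi and 47.9 ± 19.8 CPM in control (SD, n = 3 each). It was below control in 3 of 3 pairs, and the groups did not overlap (background 5.34% lower). Its log2 fold change was -1.16 (standard error, SE, 0.24; edgeR's quasi-likelihood test, unadjusted p = 0.00385, adjusted p = 0.384). It did not pass correction over all genes there, and 0 of 8708 genes did. DESeq2, another test for counts, called it (adjusted p = 0.00849), where it called 4.54% of genes. Of 8 pan-neuronal markers all were detected, and their summed level was 4831 to 5771 CPM in Prp3-RNAi and 4878 to 5907 CPM in control. Among them nSyb, brp and Syt1 also belong to the synaptic genes described here, so the sum is not independent of those genes. The other markers, elav, onecut, fne, Rbp9 and para, were detected in every library. The lowest of them was elav, at 161 to 207 CPM in Prp3-RNAi and 164 to 195 CPM in control. The label of neurons rests on these other markers. The 10 clock neuron markers summed to 2526 to 22569 CPM in Prp3-RNAi and 5564 to 19845 CPM in control, and 1 gene made most of that spread. Of the 10 markers 3 had estimates above 0, their median log2 fold change was -0.25, and cry, the gene of the light receptor cryptochrome, was the only one at an unadjusted p-value under 0.05, lower in 3 of 3 pairs (-0.95 on the log2 scale). The peptide gene Pdf, a marker of lateral clock neurons, stood in Prp3-RNAi libraries 1 to 3 at 302, 155 and 19961 CPM and in control libraries 1 to 3 at 15942, 2566 and 17385 CPM. The 9 glia markers in the files summed to 337 to 532 CPM in Prp3-RNAi and 297 to 711 CPM in control. They did not go together: repo was at or below 1.56 CPM, while nrv2 was at 119 to 142 CPM in Prp3-RNAi and 121 to 138 CPM in control. Most of the rest was Gs2 and Eaat1. How much glial RNA the libraries held was not tested. The 14 photoreceptor markers summed to 290.5 to 452 CPM in Prp3-RNAi and 316 to 401 CPM in control. Most of that sum was norpA, at 206 to 354 CPM in Prp3-RNAi and 214 to 293 CPM in control, ninaA was at 0, and 2 of the 10 tested markers, ninaC and Arr2, were higher in Prp3-RNAi at an unadjusted p-value under 0.05 (log2 fold changes 5.26 and 3.04, with at most 23.5 CPM in any library). The 9 hemocyte and fat body markers summed to 0.787 to 4.25 CPM in Prp3-RNAi and 0.251 to 164 CPM in control, and control library 3 alone held the high value. The part of these differences in the values of the synaptic genes was not tested, and values without pair 3 are given below for the genes that led the comparison.

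Of the 37 synaptic genes, 36 had at least 1 count and 35 passed the filter on low counts. The genes left out were stnB and Nlg1. stnB, the gene of a stonin that recruits synaptotagmin during endocytosis, had 0 counts in all 6 libraries. In the Ensembl annotation all of its exonic bases are shared with stnA on the same strand, as both proteins are read from a single transcript, and stnA also had 0 counts. The files list reads that fit more than 1 gene apart, as ambiguous, so the zeros say nothing about the level of this locus. Nlg1, which codes for a neuroligin described at the neuromuscular junction of larvae, had 0, 3 and 5 counts in Prp3-RNAi libraries 1 to 3, against 15, 10 and 0 counts in control libraries 1 to 3. Both groups held a library at 0, and a count of 0 allows up to 3 counts.

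Levels of the remaining 35 genes were compared with one another as CPM per kilobase of exon, over all 6 libraries. They ran from 4.22 for Liprin-alpha to 350.3 for nSyb. Of the 35 genes, 14 lay in the top 10% of the tested genes with a known length, and 29 lay above their median. The fusion machinery stood highest: all 6 genes of the SNARE class were between 226 and 350.3 CPM per kilobase. The dynamin gene shi (348), the vesicle genes Rab3 (314) and Sap47 (305) and the synaptotagmin Syt7 (255) were in the same range of CPM per kilobase. Scaffold genes of the active zone were lower, with unc-13 at 91.3, Rim at 39.6, Rbp at 28.7 and brp at 20.0 CPM per kilobase. Below the median of the tested genes lay Nlg4 (5.63), Rph (7.14), Syt12 (6.35), Syt14 (8.14), Frq2 (5.16) and Liprin-alpha, in CPM per kilobase. The order among the highest genes depends on which exons are counted. With the length of the canonical transcript alone, shi came first, followed by Syx1A and nSyb, and dlg1, whose exons of 21 annotated transcripts add up to 11505 bases against 3196 in the canonical one, moved from rank 27 to rank 17. Counts are per gene, so isoforms were not told apart, which concerns cpx (21 annotated transcripts), shi (15), brp (14), Rim (14) and Sap47 (12) as well.

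**Figure D1:**
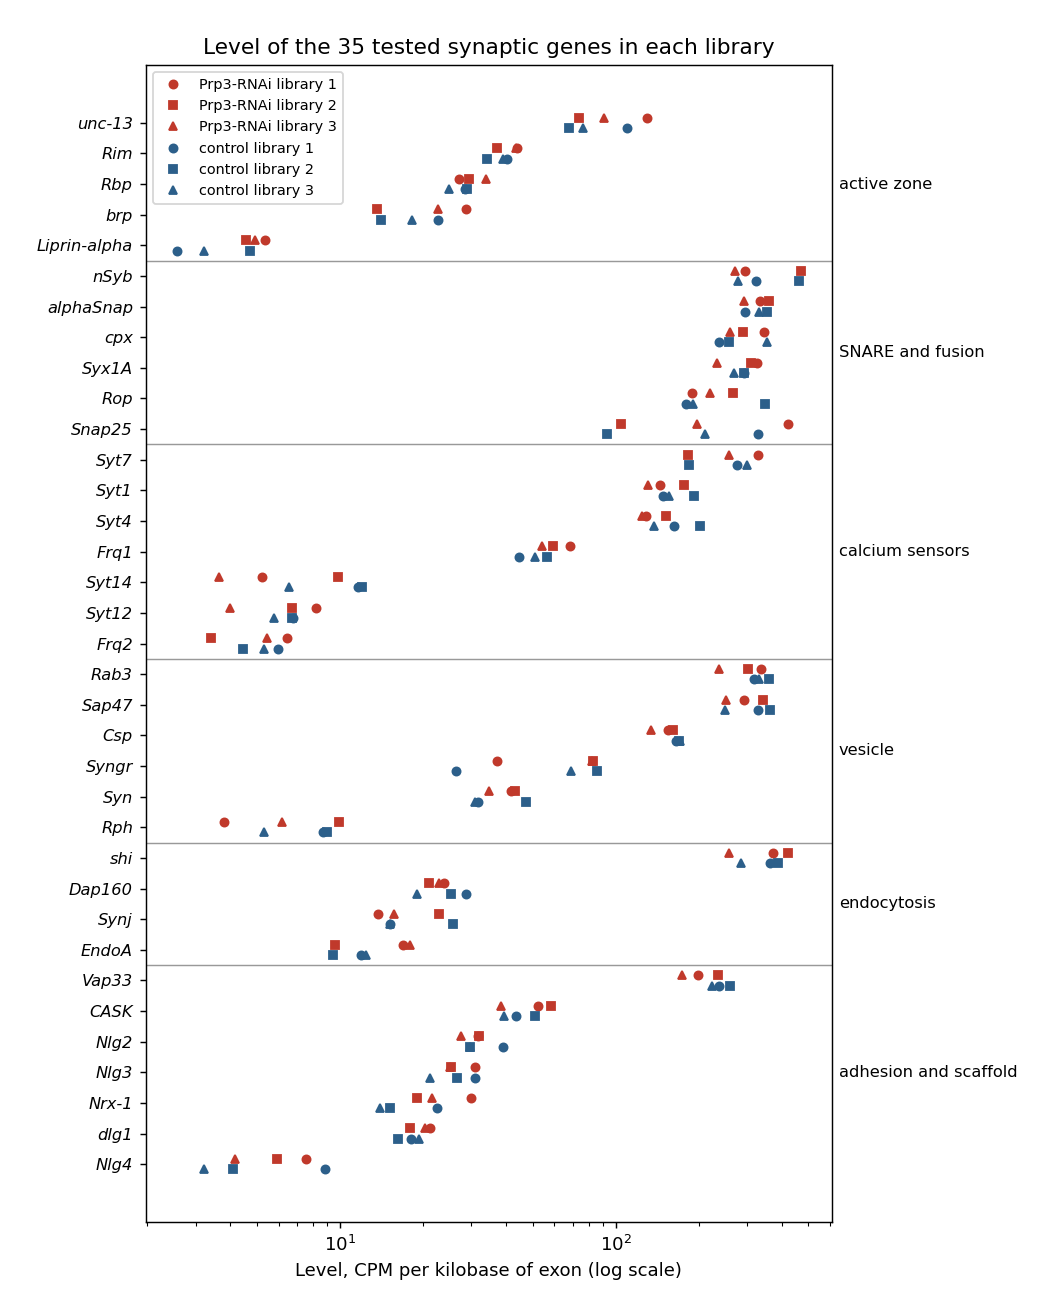
Level of each of the 35 tested synaptic genes in each library, as CPM per kilobase of exon on a log axis, grouped by role, with Prp3-RNAi libraries in red above control libraries in blue. Snap25 spreads from 92.8 to 421 while the other SNARE and fusion genes stay within 180.0 to 470.0, and Liprin-alpha, Nlg4, Frq2, Syt12, Syt14 and Rph stay at or below 12.0.

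The comparison asked how synaptic transcripts of clock neurons differ when Prp3 is lowered. None of the 35 genes passed correction over all 8708 tested genes. Most differences were small: 27 of the 35 genes (77.1%) had an estimated log2 fold change of less than 0.25 in size, against 45.1% of all tested genes, and 0 of the 35 had one over 1, against 17.3% of all tested genes. These shares do not compare genes of like level. Of the 35 genes, 29 lay above the median level, and their median standard error was 0.12, against 0.29 for all tested genes. The part of level in these shares was not tested. The genes farthest from 0 were Syt14 at -0.76 and Liprin-alpha at 0.54. Nrx-1 and unc-13 were higher in Prp3-RNAi in 3 of 3 pairs, and Syt4, Syt14 and Vap33 were lower in 3 of 3 pairs. In bulk libraries, fewer cells of a type and less RNA per cell cannot be told apart.

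Tested with edgeR's quasi-likelihood test with the pair as a block, 0 of the 35 genes had an adjusted p-value under 0.05, and 0% of all tested genes did (0 of 8708). DESeq2 with the same block called 2 of them, Nrx-1 and Vap33, where it called 4.54% of all genes to which it gave an adjusted p-value, and limma-voom called 0. At an unadjusted p-value under 0.05 in edgeR there were 5 synaptic genes (14.3%), against 9.98% of all tested genes. Of these, 2 were higher in Prp3-RNAi (background 4.71%) and 3 were lower (background 5.27%). Without the block 0 of the 35 reached this level, against 4.83% of all tested genes. The median log2 fold change of the 35 genes was 0.010, equal at this precision to the median of all tested genes (0.0098), and by pair it was 0.10, -0.00013 and 0.035. The fold change was above 0 for 20 genes and below 0 for 15, a split that became 16 and 19 with the scaling of DESeq2 (RLE) in edgeR and 22 and 13 with library totals alone. For 11 of 35 genes the pairs shared a sign, 6 higher and 5 lower, where the share among all tested genes was 35.1% (17.5% higher and 17.6% lower). Apart from Csp, which was lower, the groups overlapped for every one of the 35 genes; the share of genes without overlap was 11.6% of all tested genes (6.27% higher and 5.34% lower). The median standard error was 0.12 for the 35 genes and 0.29 for all tested genes, as log2 fold change.

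**Figure D2:**
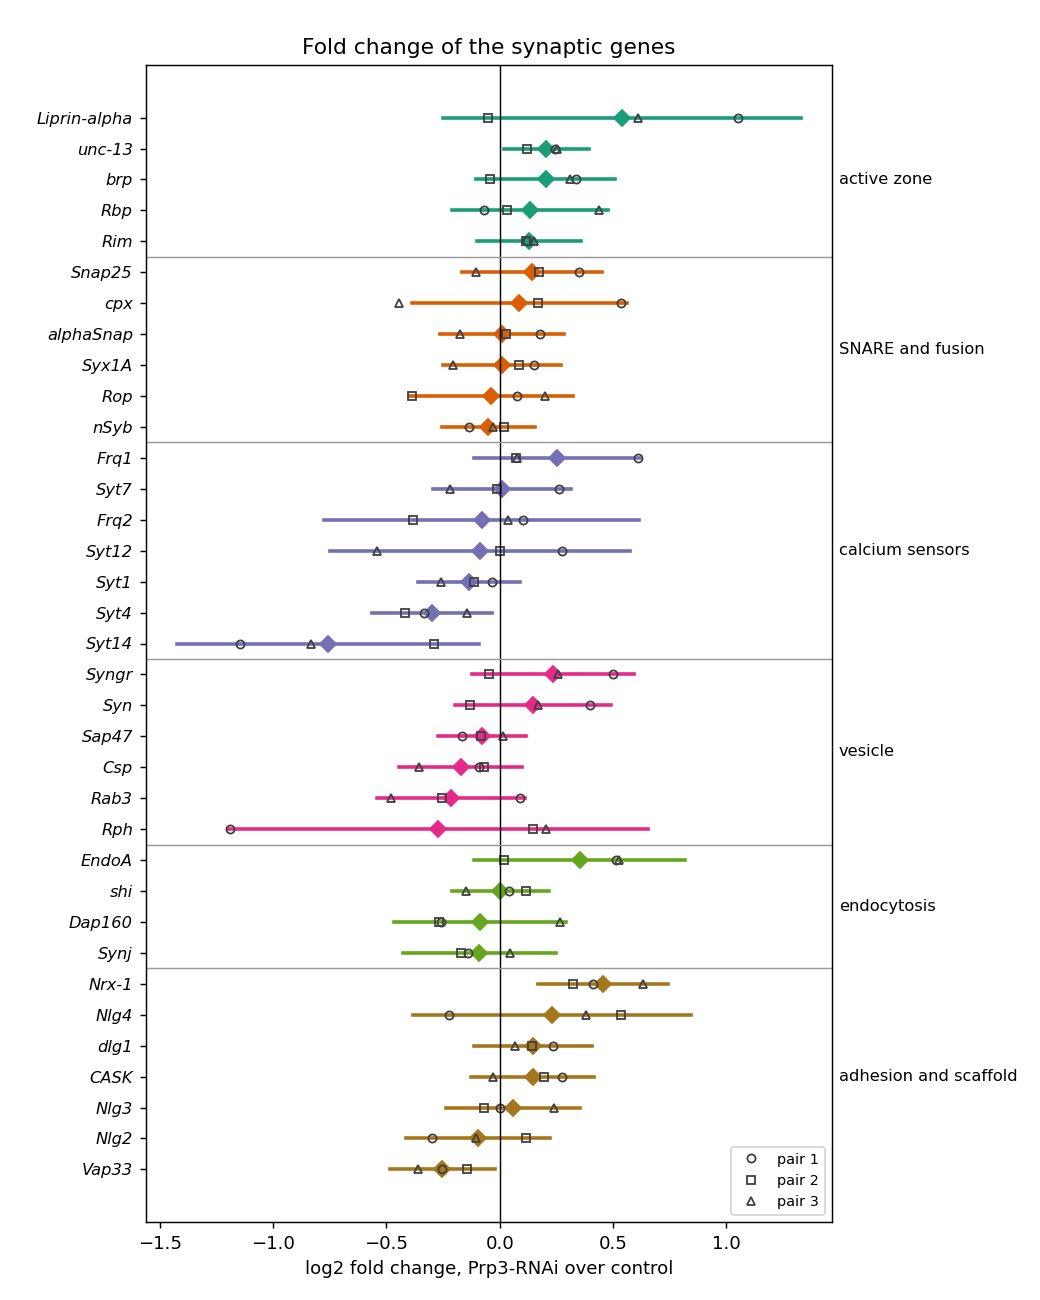
Log2 fold change of the 35 tested synaptic genes, Prp3-RNAi over control, by role. Diamonds are edgeR estimates with 95% intervals as bars and open symbols are the 3 pairs. The intervals leave out 0 for unc-13, Syt4, Syt14, Nrx-1 and Vap33, with no correction for the number of genes, and the 5 active zone estimates all lie to the right of 0.

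Among genes of the active zone scaffold and priming, all 5 estimates lay above 0, with a median log2 fold change of 0.20, while 50.9% of all tested genes had an estimate above 0. This direction held with RLE scaling and with library totals alone, but without pair 3 there were 4 above 0 and 1 below, Rbp. Of the 5 genes, 2 were higher in 3 of 3 pairs, where 17.5% of all tested genes were. Of the 5 genes, 0 passed correction and 1 reached an unadjusted p-value under 0.05. That gene was unc-13 (FBgn0025726, chromosome 4, 867824 to 912331, minus strand, build BDGP6, dm6 coordinates), whose protein primes vesicles by opening syntaxin. It had 2937, 1663 and 2049.9 CPM in Prp3-RNAi libraries 1 to 3, against 2478, 1529.9 and 1722 CPM in control libraries 1 to 3. Each Prp3-RNAi library was above its paired control, but the groups overlapped widely, because the libraries numbered 1 were high in both. Its estimate was 0.21 (SE 0.074, log2 scale), with an unadjusted p of 0.0369 and adjusted p = 0.472 in edgeR. Leaving out pairs 1 to 3 in turn gave 0.20, 0.25 and 0.18. In the annotation, 25.2% of its exonic bases overlap antisense genes, so its counts are less certain there, and with the sum of the strand columns the log2 fold change was 0.21.

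Liprin-alpha (FBgn0046704, chromosome 2L, 6723903 to 6732766, plus strand), a scaffold protein of active zone assembly, had the largest estimate of this class and the lowest level. It had 33.1, 28.4 and 30.6 CPM in Prp3-RNAi libraries 1 to 3, against 15.9, 29.4 and 20.0 CPM in control libraries 1 to 3. Pairs 1 and 3 were higher in Prp3-RNAi and pair 2 was not, and the groups overlapped through control library 2. Its estimate of 0.54 (SE 0.31) had an interval of -0.25 to 1.33 on the log2 scale (edgeR, adjusted p = 0.623). Without pair 1 it was 0.29, and without pair 2 it was 0.84. The gene brp, which codes for Bruchpilot, the protein that forms the dense projection of the fly active zone, had 383, 182 and 302 CPM in Prp3-RNAi libraries 1 to 3, against 303, 188 and 244 CPM in control libraries 1 to 3. Its pairs differed by 0.34, -0.044 and 0.31 on the log2 scale, so pair 2 stood apart. Rim, whose protein links vesicles and calcium channels, was read at 590.5 ± 54.5 CPM in Prp3-RNAi and 539.6 ± 46.3 CPM in control (SD, n = 3 each). It was higher in 3 of 3 pairs by a similar amount (0.12, 0.12 and 0.15 on the log2 scale), with an interval of -0.098 to 0.36 that includes 0. Rbp, the gene of the RIM-binding protein, was read at 275 ± 31.5 CPM in Prp3-RNAi and 249.6 ± 19.5 CPM in control (SD, n = 3 each), and its excess came from pair 3 (log2 differences -0.069, 0.031 and 0.44), without which its log2 fold change was -0.017.

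The core of the fusion machinery had the narrowest range of estimates among the classes. All 6 genes of the SNARE class were within -0.049 to 0.14 log2 fold change. For 0 of them did the pairs share a sign, where they did for 35.1% of all tested genes. The part of their high level in this narrow range was not tested. The split of signs, 4 above and 2 below 0, rests on the scaling: it was 2 and 4 with RLE and 6 and 0 with library totals alone. nSyb (FBgn0013342, chromosome 3L, 1630348 to 1637752, minus strand), the vesicle SNARE synaptobrevin, had 1197, 1914 and 1108 CPM in Prp3-RNAi libraries 1 to 3, against 1316, 1891 and 1131 CPM in control libraries 1 to 3. Both libraries numbered 2 were far above the others, and within each pair the values were close. Its log2 fold change was -0.049 with an interval of -0.25 to 0.15, which is a level between 83.9% and 111% of control. The syntaxin gene Syx1A, a SNARE of the cell membrane, was read at 1203 ± 206 CPM in Prp3-RNAi and 1184 ± 57.3 CPM in control (SD, n = 3 each), with an interval of -0.25 to 0.27. The gene alphaSnap, whose protein brings the ATPase NSF to spent SNARE complexes, was read at 680.2 ± 70.0 CPM in Prp3-RNAi and 675 ± 60.9 CPM in control (SD, n = 3 each), with an interval of -0.26 to 0.28. Rop, the fly Munc18 protein that binds syntaxin, was read at 595 ± 102 CPM in Prp3-RNAi and 634 ± 249 CPM in control (SD, n = 3 each), and control library 2 was its highest value at 921 CPM.

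Complexin, coded by cpx, holds assembled SNAREs back until calcium enters. It had the highest CPM of all 37 genes before scaling for length, with 3929, 3303 and 2978 CPM in Prp3-RNAi libraries 1 to 3, against 2709, 2938 and 4058 CPM in control libraries 1 to 3. The pairs went in different directions (0.54, 0.17 and -0.45 on the log2 scale), and the interval of -0.39 to 0.56 was the widest of this class. Snap25 (FBgn0011288, chromosome 3L, 24074180 to 24299205, plus strand), the membrane SNARE that pairs with syntaxin, had the largest estimate of the class, 0.14 (SE 0.12, log2 scale, edgeR adjusted p = 0.750). It had 961, 239 and 449.7 CPM in Prp3-RNAi libraries 1 to 3, against 753, 212 and 483 CPM in control libraries 1 to 3. The groups overlapped, and pairs 1 and 2 were higher in Prp3-RNAi while pair 3 was lower (0.35, 0.17 and -0.10 on the log2 scale). Without pair 1 the estimate was 0.047, and without pair 3 it was 0.26. Differences between the pairs were wider than those within them: the mean of the libraries numbered 1 was 3.78 times that of the libraries numbered 2. This was the widest range between pairs among the 35 genes.

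The class of calcium sensors was set by gene family, and calcium binding by each member was not tested. Of its 7 genes, 2 had estimates above 0 and 5 below (1 and 6 with RLE scaling). Among them were 2 of the 3 genes that were lower at an unadjusted p-value under 0.05, Syt4 and Syt14. Of all tested genes 5.27% were lower at that level. Syt4 (FBgn0028400, chromosome 3R, 7266065 to 7270809, plus strand), a synaptotagmin known in flies for release from the receiving side of the neuromuscular junction, had 401, 472 and 386 CPM in Prp3-RNAi libraries 1 to 3, against 505, 630.4 and 427 CPM in control libraries 1 to 3. It was lower in 3 of 3 pairs (-0.33, -0.42 and -0.14 on the log2 scale), and the groups overlapped because control library 3 lay below Prp3-RNAi library 2. On the log2 scale the difference was -0.30 (SE 0.10; edgeR, unadjusted p = 0.0329, adjusted p = 0.470). Without pairs 1 to 3 in turn it was -0.27, -0.23 and -0.37.

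Syt14 (FBgn0261086, chromosome 3R, 4314455 to 4319069, minus strand), a synaptotagmin family member, had 20.2, 38.1 and 14.1 CPM in Prp3-RNAi libraries 1 to 3, against 44.8, 46.6 and 25.3 CPM in control libraries 1 to 3. It was lower in 3 of 3 pairs, least in pair 2, and both groups had their lowest value in library 3. Its log2 fold change of -0.76 (SE 0.26) was the largest in size among the 35 genes, with an interval of -1.43 to -0.091 (edgeR, unadjusted p = 0.0327, adjusted p = 0.470). Without pairs 1 to 3 in turn it was -0.55, -0.99 and -0.72. Its level was low, at 8.14 CPM per kilobase, and 24.4% of its exonic bases overlap Suv3 on the opposite strand. With the sum of the strand columns the log2 fold change was -0.68, but that sum cannot tell Syt14 and Suv3 apart, as for unc-13.

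Syt1, the main sensor for fast release, was read at 1087 ± 172 CPM in Prp3-RNAi and 1191 ± 166 CPM in control (SD, n = 3 each). It was lower in 3 of 3 pairs (-0.032, -0.11 and -0.26 on the log2 scale), with an interval of -0.36 to 0.092 that includes 0. Syt7 (FBgn0039900, chromosome 4, 278685 to 306481, minus strand), a synaptotagmin with high affinity for calcium, had 1092, 606 and 854 CPM in Prp3-RNAi libraries 1 to 3, against 911, 611 and 994 CPM in control libraries 1 to 3, and its log2 fold change was 0.010 with an interval of -0.29 to 0.31. Both libraries numbered 2 were its lowest. Syt12, another family member, was read at 30.3 ± 10.3 CPM in Prp3-RNAi and 30.9 ± 2.63 CPM in control (SD, n = 3 each). Per kilobase, Syt7 made up 45.8 ± 9.91% in Prp3-RNAi and 42.0 ± 9.82% in control of the summed level of the 5 synaptotagmins. The share of Syt1 was 27.4 ± 5.38% in Prp3-RNAi and 27.5 ± 4.03% in control, that of Syt4 24.5 ± 3.93% in Prp3-RNAi and 27.8 ± 5.69% in control, and Syt12 and Syt14 stayed at or below 2.01% each in every library. With all exons counted, the order of Syt7 and Syt1 was not the same in every library. Syt7 led in the libraries numbered 1 and 3. In the libraries numbered 2, Syt7, Syt1 and Syt4 had shares of 28.7% to 34.6% in Prp3-RNAi and 30.9% to 34.0% in control. All these shares depend on which exons are counted. With the canonical transcript alone, levels over all 6 libraries were 298 for Syt7, 285 for Syt1 and 152 for Syt4, in CPM per kilobase.

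Frq1 and Frq2 code for frequenins, small calcium-binding proteins of nerve terminals, and lie beside each other on chromosome X, from 18155369 to 18174744 and from 18177612 to 18204407. They are close copies. The files list reads that map to more than 1 place apart (6.37% to 9.89% of reads per library). Reads that fit both genes equally were thus counted for neither, so their levels are less certain and may be too low. Frq1 was read at 346 ± 41.0 CPM in Prp3-RNAi and 291 ± 33.1 CPM in control (SD, n = 3 each) and Frq2 at 22.9 ± 6.93 CPM in Prp3-RNAi and 23.6 ± 3.46 CPM in control (SD, n = 3 each). Per kilobase, Frq1 made up 90.9% to 94.6% of the sum of both in Prp3-RNAi libraries and 88.2% to 92.7% in control libraries. The log2 fold change of Frq1 was 0.25 (interval -0.11 to 0.62), most of it from pair 1 (0.61, 0.072 and 0.079 on the log2 scale), and that of Frq2 was -0.080 (interval -0.77 to 0.61).

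Of the 6 vesicle genes, 4 had estimates below 0 and 2 above, and for 0 was the unadjusted p-value under 0.05. Rab3 (FBgn0005586, chromosome 2R, 10721335 to 10729203, minus strand), the small GTPase of synaptic vesicles, had 1268, 1131 and 891 CPM in Prp3-RNAi libraries 1 to 3, against 1192, 1350.2 and 1241 CPM in control libraries 1 to 3. Its log2 fold change was -0.22 with an interval of -0.54 to 0.11, and pairs 2 and 3 were lower while pair 1 was not. Without pairs 1 to 3 in turn it was -0.36, -0.19 and -0.081, with unadjusted p-values of 0.0158, 0.360 and 0.559 in edgeR. Csp, the cysteine string protein, a chaperone that keeps SNAREs folded, had 479, 498 and 413 CPM in Prp3-RNAi libraries 1 to 3, against 510.0, 523 and 529 CPM in control libraries 1 to 3. All Prp3-RNAi libraries were below all control libraries, yet the interval of its log2 fold change of -0.17, -0.44 to 0.099, includes 0 (edgeR, adjusted p = 0.646). Sap47, a synapse-associated protein, was read at 1893 ± 293 CPM in Prp3-RNAi and 2006 ± 374 CPM in control (SD, n = 3 each). Syn, the synapsin that ties vesicles into a reserve pool, was read at 231 ± 26.4 CPM in Prp3-RNAi and 212 ± 53.7 CPM in control (SD, n = 3 each).

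Rph (FBgn0030230, chromosome X, 10749077 to 10757666, minus strand), the gene of rabphilin, a partner of Rab3, had 15.2, 39.7 and 24.5 CPM in Prp3-RNAi libraries 1 to 3, against 34.8, 35.8 and 21.3 CPM in control libraries 1 to 3. Its log2 fold change of -0.27 (SE 0.37) came from pair 1 alone, and without that pair it was 0.19. Syngr, the gene of synaptogyrin, a membrane protein of the vesicle, had 101, 225 and 223 CPM in Prp3-RNAi libraries 1 to 3, against 71.2, 232 and 187 CPM in control libraries 1 to 3. Its libraries numbered 1 were low in both groups, and the range between pair means was 2.69-fold, against a log2 fold change of 0.24 between the groups (interval -0.12 to 0.60).

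Of the 4 tested genes of vesicle recycling, 2 had estimates above 0 and 2 below (1 and 3 with RLE scaling), and 0 reached an unadjusted p-value under 0.05. The dynamin gene shi (FBgn0003392, chromosome X, 15892116 to 15906716, plus strand), whose product pinches vesicles off the membrane, had 2240.4, 2522 and 1539.8 CPM in Prp3-RNAi libraries 1 to 3, against 2179.8, 2326 and 1707 CPM in control libraries 1 to 3. The values of a pair were close, both libraries numbered 3 were lowest, and the interval of the log2 fold change was -0.21 to 0.22, or 86.4% to 116% of control. EndoA (FBgn0038659, chromosome 3R, 18906609 to 18910755, plus strand), the gene of endophilin, which bends the membrane and recruits synaptojanin, had 70.4, 39.7 and 74.3 CPM in Prp3-RNAi libraries 1 to 3, against 49.3, 39.2 and 51.6 CPM in control libraries 1 to 3. It was higher in 3 of 3 pairs, though in pair 2 by 0.020 only, and its estimate was 0.35 (SE 0.18, log2 scale, edgeR adjusted p = 0.595). Without pair 2 it was 0.53. Synj, the lipid phosphatase that uncoats vesicles, was read at 83.1 ± 22.7 CPM in Prp3-RNAi and 89.1 ± 29.0 CPM in control (SD, n = 3 each). Dap160, the intersectin scaffold that works with dynamin, was read at 144 ± 9.29 CPM in Prp3-RNAi and 155 ± 31.2 CPM in control (SD, n = 3 each), with control library 1 highest and control library 3 lowest of the 6.

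Of the 7 tested genes of synaptic adhesion and membrane scaffolds, 5 had estimates above 0 and 2 below, where 50.9% of all tested genes were above 0, and 2 reached an unadjusted p-value under 0.05, where 9.98% of all tested genes did. The smallest p-value of the 35 genes was among them. Nrx-1 (FBgn0038975, chromosome 3R, 22468512 to 22486969, plus strand), the neurexin of the presynaptic membrane and partner of neuroligins, had 320.0, 203 and 232 CPM in Prp3-RNAi libraries 1 to 3, against 240.4, 162 and 149 CPM in control libraries 1 to 3. Each Prp3-RNAi library was above its paired control (0.41, 0.32 and 0.64 on the log2 scale), and the groups overlapped because control library 1 was above Prp3-RNAi libraries 2 and 3. Its level was 137% of control, a log2 difference of 0.46 (SE 0.11, interval 0.17 to 0.75; edgeR, unadjusted p = 0.00912, adjusted p = 0.424). DESeq2 gave 0.44 (adjusted p = 0.0360), and over the 11 alternatives the adjusted p-value ran up to 0.999. Without pairs 1 to 3 in turn the log2 fold change was 0.49, 0.53 and 0.37. With pair 3, which includes the control library with hemocyte markers, left out, the unadjusted p-value was 0.0438 in edgeR's quasi-likelihood test. In the same fit it was 0.0353 for Syt4, 0.0874 for Syt14, 0.0988 for unc-13 and 0.143 for Vap33.

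The neuroligins, which bind neurexin across the cleft, did not share this pattern of signs. Nlg2 was read at 172 ± 14.3 CPM in Prp3-RNAi and 184 ± 30.3 CPM in control (SD, n = 3 each), Nlg3 at 180.0 ± 21.8 CPM in Prp3-RNAi and 174 ± 32.2 CPM in control (SD, n = 3 each) and Nlg4 at 36.9 ± 10.6 CPM in Prp3-RNAi and 33.7 ± 19.0 CPM in control (SD, n = 3 each). Their log2 fold changes were -0.095, 0.058 and 0.23, with intervals of -0.41 to 0.22, -0.24 to 0.35 and -0.38 to 0.84. Per kilobase, Nlg2 made up 48.1 ± 2.75% in Prp3-RNAi and 51.1 ± 3.20% in control of the summed neuroligin level, and the share of Nlg3 was 42.7 ± 2.36% in Prp3-RNAi and 40.8 ± 2.77% in control. These shares differed between the groups by about their standard deviations.

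Vap33 (FBgn0029687, chromosome X, 3948975 to 3955442, plus strand), a membrane protein of the endoplasmic reticulum that tethers it to other membranes, had 774, 915 and 681 CPM in Prp3-RNAi libraries 1 to 3, against 923, 1013 and 873 CPM in control libraries 1 to 3. It was lower in 3 of 3 pairs (-0.25, -0.15 and -0.36 on the log2 scale), and the groups overlapped through Prp3-RNAi library 2. Its level was 83.9% of control, a log2 difference of -0.25 (SE 0.092; edgeR, unadjusted p = 0.0376, adjusted p = 0.474). DESeq2 called it just under the threshold (adjusted p = 0.0473), and over the 11 alternatives the adjusted p-value ran up to 0.999. Without pairs 1 to 3 in turn the log2 fold change was -0.24, -0.30 and -0.20. CASK and dlg1 code for scaffold proteins of the MAGUK family. CASK was read at 475 ± 97.1 CPM in Prp3-RNAi and 425 ± 56.3 CPM in control (SD, n = 3 each) and dlg1 at 228 ± 19.8 CPM in Prp3-RNAi and 206 ± 18.0 CPM in control (SD, n = 3 each), with intervals of -0.13 to 0.42 and -0.11 to 0.41. In the annotation, CASK shares 28.0% of its exonic bases with lncRNA:CRG on the same strand, so its counts are less certain there.

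**Figure D3:**
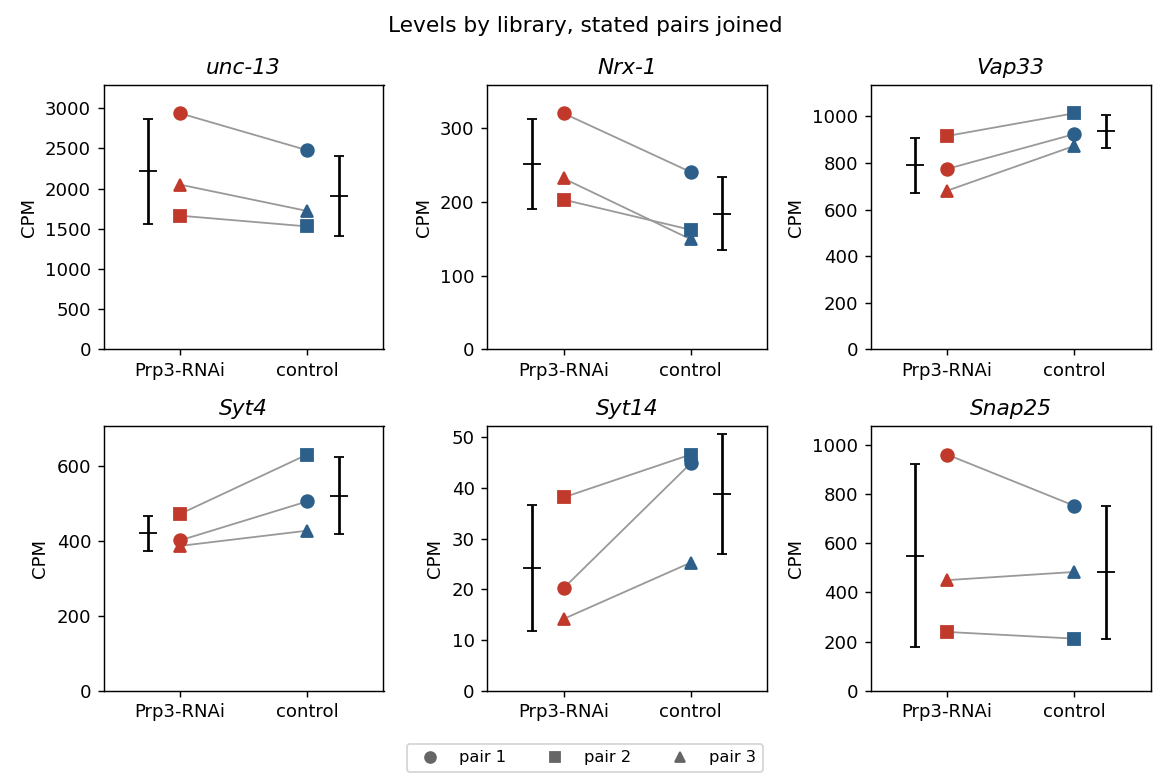
CPM in each library for the 5 synaptic genes with an unadjusted p-value under 0.05 and for Snap25, with paired libraries joined by lines and group means ± SD (n = 3) beside them, on axes that start at 0. unc-13 and Nrx-1 fall along every line from Prp3-RNAi on the left to control on the right, Vap33, Syt4 and Syt14 climb along every line, and the Snap25 lines are far apart, with pairs 1 and 2 falling and pair 3 climbing.

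For most synaptic genes, as for most tested genes, the spread between library numbers was wider than the difference between the groups. For 31 of the 35 genes (88.6%) the range between the 3 pair means was wider than the difference between the groups, against 78.7% of all tested genes, and the pair means differed by more than 1.5-fold for 15 genes. A range over 3 means of smaller sets tends to exceed a single difference between group means. This share therefore cannot show an effect of library number. The median range was 0.49 on the log2 scale for the 35 genes and 0.67 for all tested genes. The libraries numbered 2 were the highest of their own group in both groups for 14 of the 35 genes, among them nSyb, Rop, Syt1, Synj, Syngr and Vap33, against 19.9% of all tested genes. They were the lowest in both groups for 8 genes, among them brp, Rim, unc-13, Snap25, Syt7 and EndoA, against 18.8% of all tested genes. The libraries numbered 1 were highest in both groups for 11 genes (background 11.3%), including brp, unc-13, Snap25 and Nrx-1, and lowest in both for Rop and Syngr (background 12.6%). The libraries numbered 3 were lowest in both groups for 13 genes (background 16.0%) and highest in both for EndoA only (background 18.6%). Where nSyb was highest, brp, Rim, unc-13 and Snap25 were lowest, in both groups. Of the marker lists, the sum of the 9 glia markers came, in CPM, to 349, 337 and 532 in Prp3-RNAi libraries 1 to 3 and 462, 297 and 711 CPM in control libraries 1 to 3. Its low values in the libraries numbered 2 and high values in those numbered 3 came mostly from Gs2, at 105, 93.4 and 257 CPM in Prp3-RNAi and 222, 61.2 and 502 CPM in control, and single markers differed: Eaat1 was lowest in the libraries numbered 3, at 74.3 CPM in Prp3-RNAi and 27.2 CPM in control. Their part in the values of the synaptic genes was not tested.

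**Figure D4:**
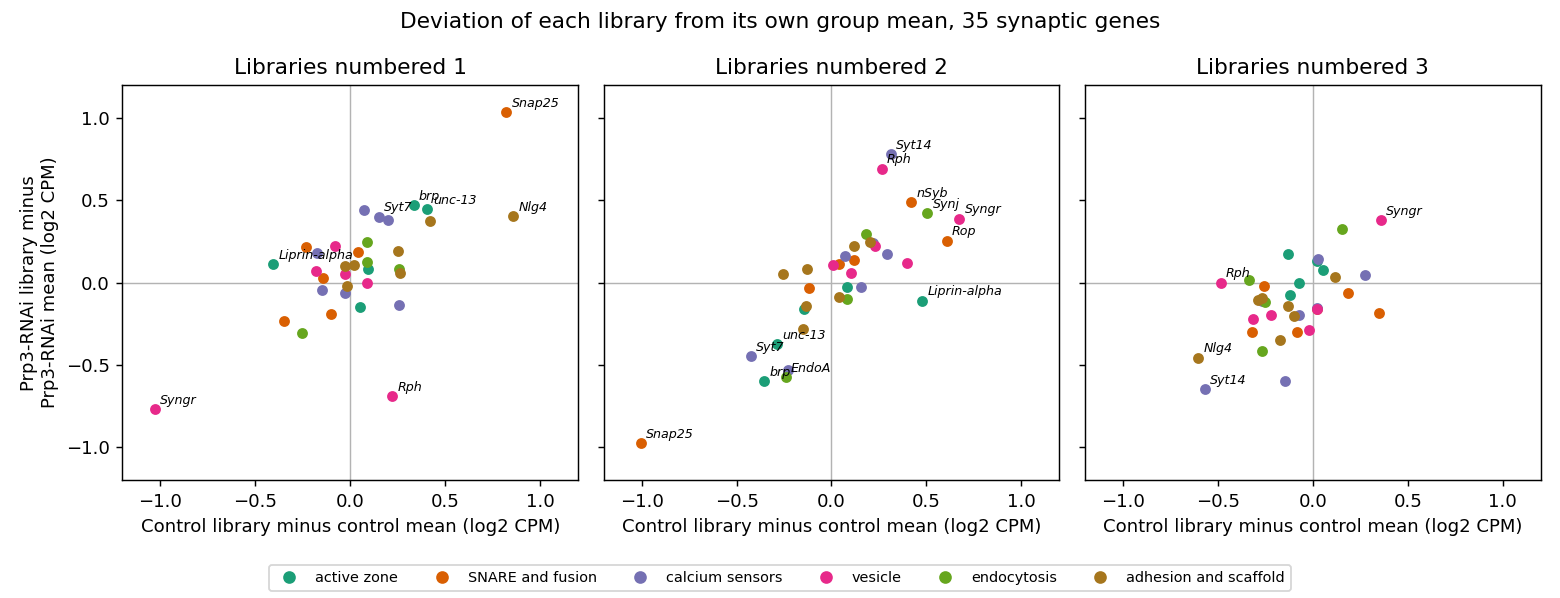
Each panel takes the 2 libraries of one number and plots, for the 35 synaptic genes, the log2 CPM of the Prp3-RNAi library minus the Prp3-RNAi mean against that of the control library minus the control mean, coloured by role. In the panel of libraries numbered 2, Snap25, brp, unc-13 and Syt7 lie low on both axes and nSyb, Rop, Synj and Syngr lie high on both.

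Summed over the 37 genes, the CPM came to 24653, 23053 and 19609.5 in Prp3-RNAi libraries 1 to 3 and 22402, 23049.7 and 21314 CPM in control libraries 1 to 3. The groups overlapped, and Prp3-RNAi held both the highest and the lowest value.

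Beyond the 37 genes, 58 other genes of synapses were listed by role, of which 55 were tested. Of these, 0 were called in edgeR (0 in limma-voom and 3 in DESeq2, which called 4.54% of all genes), and for 7 (12.7%) the unadjusted p-value was under 0.05, against 9.98% of all tested genes. Of these, 3 were higher in Prp3-RNAi (background 4.71%) and 4 lower (background 5.27%). Without the block 3 of the 55 reached this level, against 4.83% of all tested genes, so these counts lay near the background. The smallest p-value among those higher was that of stj, an auxiliary subunit of calcium channels that helps them reach the active zone. It had 351, 409 and 329 CPM in Prp3-RNAi libraries 1 to 3, against 231, 234 and 143 CPM in control libraries 1 to 3. The groups did not overlap, and the difference was 0.87 on the log2 scale (SE 0.14, edgeR adjusted p = 0.367). The smallest among those lower was that of fwe, which codes for flower, a vesicle protein described in endocytosis. It had 283, 192 and 288 CPM in Prp3-RNAi libraries 1 to 3, against 458, 463 and 476 CPM in control libraries 1 to 3. Again the groups did not overlap, and the difference was -0.89 on the log2 scale (SE 0.15, edgeR adjusted p = 0.367). The groups did not overlap for 4 of the 55 genes, 1 higher and 3 lower. Among all tested genes this share was 11.6% (6.27% higher and 5.34% lower). DESeq2 called both stj and fwe, with adjusted p-values of 6.01e-06 for stj and 7.88e-07 for fwe. Over the 11 alternatives the adjusted p-value of each ran up to 0.809. Fife, a scaffold of the active zone, and lap, an adaptor of clathrin, had log2 fold changes of 0.29 (SE 0.10) and 0.38 (SE 0.13). Amph, the gene of amphiphysin, Eps-15, an endocytic scaffold, and Cals, a calsyntenin, had log2 fold changes of -0.61 (SE 0.18), -0.44 (SE 0.12) and -0.25 (SE 0.088). DESeq2 also called Cals, with an adjusted p-value of 0.0466. The median log2 fold change of the 55 genes was -0.021. By class, estimates were above 0 for 8 of 11 other calcium channel and active zone genes and 10 of 15 other adhesion and scaffold genes, with median log2 fold changes of 0.089 and 0.10. They were above 0 for 2 of 10 other SNARE and synaptotagmin genes, 4 of 14 other endocytosis genes and 2 of 5 other vesicle genes, with medians of -0.22, -0.10 and -0.037, where 50.9% of all tested genes were above 0. With library totals alone the counts of these 5 classes, in the same order, were 10, 11, 3, 5 and 3, and the median of the vesicle class turned to 0.035, as it did to 0.22 without pair 1 and 0.075 without pair 3. Without pair 1, 4 of the 10 other SNARE and synaptotagmin genes were above 0, with a median of -0.13.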

How the data were processed

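Per the submitters' processing notes, Trim Galore 0.6.7, STAR 2.7.0a and build dm6 were used; the annotation is not given in the sources used here. The deposited files hold whole-number read counts per gene for 6 libraries of low-input polyadenylated RNA, not normalized and not pooled; amplified reads are not independent molecules. The count column for both strands together was used. The share of reads outside named genes was 18.5% to 24.4%, and they stayed out of library sizes and tests.

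Counts were tested with edgeR 4.0.16 in R 4.3.3 (glmQLFit, glmQLFTest, two-sided, TMM, filterByExpr with min.count 10 and min.total.count 15, 8708 of 17868 genes kept), with the replicate number as a block because the titles state pairs, and Benjamini-Hochberg adjustment over all tested genes. Standard errors are the log2 fold change over the square root of F, and 95% intervals use the fitted degrees of freedom. Log2 CPM used a prior count of 2. Correlations of deviations from the group means were 0.0458, 0.266 and 0.236 for same-numbered libraries and -0.252 to 0.0203 for others. Exon lengths, overlaps and coordinates come from Ensembl's annotation of BDGP6.54. Fits were tested on simulated data. Alternatives used DESeq2 1.42.0, limma 3.58.1, other scaling, other filters, the strand columns, no block and pairs left out. Genes with full values were those with an unadjusted p-value under 0.05 or a call in an alternative, and the highest and most different per role; further library values were chosen after being seen. Members and lists were chosen with earlier results of these data known.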

Additional observations from a re-analysis of the deposited data

How the results depend on the processing

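Of the 37 genes, 0 were called in edgeR with the replicate block and 2 by DESeq2. The count at an unadjusted p-value under 0.05 was 5, against 0 with no replicate block, 3 with library totals alone and 1 to 3 with a pair left out. Among the other synapse genes it was 7, against 3 with no replicate block and 3 to 4 with a pair left out. Over all genes 0 were called, against 8 with no replicate block, 380 by DESeq2, 4 by limma-voom, 11 with at least 1 count in total, 4 with at least 50 counts in 3 libraries and 0 to 4 with a pair left out. The median log2 fold change of the 35 genes was 0.010, against 0.078 with library totals alone and 0.010 to 0.092 with a pair left out. Among the named genes signs turned for values near 0 or resting on pair 1. With a pair left out, log2 fold changes ran over -0.076 to 0.0060 for nSyb, -0.10 to 0.13 for Syt7, -0.52 to 0.19 for Rph and -0.048 to 0.080 for shi. nSyb also turned to 0.018 with library totals, Syt7 to -0.0021 with DESeq2 and -0.0022 with RLE, and shi to -0.0098 with DESeq2 and -0.0098 with RLE. Fits with a pair left out use fewer libraries; for the other changes the cause was not tested. Of 220 values of 20 named genes over 11 alternatives, 205 kept sign and side of the threshold and 5 passed it, all with DESeq2. Depth limits Nlg1, which had at most 15 counts in a library and was not tested.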
